A study of Mus musculus with 18 samples.

Results

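A set of 10 noncoding genes was followed through total, polysome and monosome RNA of LPS-treated mouse macrophages. Of them, 8 are hosts of small nucleolar RNAs (snoRNAs): Gas5, Snhg1, Snhg3, Snhg5, Snhg6, Snhg8, Snhg12 and Epb41l4aos. The other two, Malat1 and Neat1, are long noncoding RNAs of the nucleus. The 10 genes were taken by symbol from the deposited expression table of 34745 genes, and all 10 were among the 12782 genes with enough counts to be tested. They stand here as RNAs without a long reading frame, set beside messenger RNAs in the same ribosome fractions.

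The cells were macrophages grown out of mouse bone marrow with 20 ng/ml of macrophage colony-stimulating factor over 6 days, and then treated for 8 h with lipopolysaccharide (LPS) at 100 ng/ml. Their genotype was given as mkrn2-/- (KO) or mkrn2+/+ (WT). Polysome profiling gave a polysome fraction (RNA sedimenting with several ribosomes) and a monosome fraction (RNA sedimenting with a lone ribosome). RNA of the whole lysate served as total RNA. Whether an RNA found in a fraction was bound to ribosomes there was not tested. Each genotype had 3 libraries from each of polysome, monosome and total RNA, 18 in all. All groups shared the LPS exposure, so nothing here bears on LPS itself. The labels do not say how the allele was made, how old the animals were, which gradient fractions were pooled, or whether the 3 libraries of a group came from separate animals or cultures, so p-values measure only the spread between these libraries.

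A snoRNA host gene is transcribed as a precursor whose introns carry snoRNAs, the guides of ribosomal RNA modification. Once the introns have been cut out and trimmed to snoRNAs, the joined exons remain as a spliced RNA. Spliced host RNAs such as that of Gas5 are known to reach the cytoplasm, to meet ribosomes on short reading frames and to be removed by nonsense-mediated decay. Several hosts start with a run of pyrimidines like that of the messenger RNAs of ribosomal proteins. Malat1 and Neat1 behave differently: Malat1 stays in nuclear speckles, which store splicing factors, and Neat1 is the scaffold of paraspeckles, nuclear bodies that retain RNA and protein.

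RefSeq start windows (GRCm38.p6, 40 bases before to 50 from the annotated start) are shown because several hosts are known to share a pyrimidine run at the start with ribosomal protein messages. Capitals mark a run of at least 5 pyrimidines that opens with C and begins within 10 bases of the start, read on the transcribed strand.
Gas5 (chr1:161035126-161035215, + strand): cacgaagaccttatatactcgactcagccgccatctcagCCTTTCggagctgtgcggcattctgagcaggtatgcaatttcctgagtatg
Snhg12 (chr4:132308638-132308727, + strand): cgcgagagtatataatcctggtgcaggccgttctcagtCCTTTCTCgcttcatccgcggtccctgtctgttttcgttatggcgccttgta
Snhg8 (chr3:123508287-123508376, - strand): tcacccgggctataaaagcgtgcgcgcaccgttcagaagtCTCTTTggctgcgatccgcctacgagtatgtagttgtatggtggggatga
Snhg3 (chr4:132353637-132353726, - strand): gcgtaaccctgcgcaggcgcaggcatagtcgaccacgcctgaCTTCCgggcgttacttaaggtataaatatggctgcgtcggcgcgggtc
Snhg5 (chr9:88522848-88522937, - strand): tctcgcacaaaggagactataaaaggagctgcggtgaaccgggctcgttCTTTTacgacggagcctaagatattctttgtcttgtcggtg
Snhg1 (chr19:8723447-8723536, + strand): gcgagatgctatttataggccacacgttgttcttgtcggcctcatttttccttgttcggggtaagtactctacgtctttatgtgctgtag
Malat1 (chr19:5802623-5802712, - strand): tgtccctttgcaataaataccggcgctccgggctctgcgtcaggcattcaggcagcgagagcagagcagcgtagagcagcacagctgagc
The run was found in 5 of the 7 entries of hosts, against 30.7% of all 32851 RefSeq entries. Gas5 had a second entry, which begins at chr1:161034561 and held none. Snhg1 and Malat1 held none by this rule either. The letters TATAA, 40 to 11 bases before the start on the transcribed strand, were in the windows of Snhg5, Snhg8 and Snhg12, 3 of the 7 host entries, against 3.79% of all entries. Neat1, Snhg6 and Epb41l4aos were not matched. A match is a string of letters and says nothing of a factor, and whether it bears on the values below was not tested.

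Reading frames are shown for 4 genes, to let the length of what a ribosome could read be compared with the values below. Each is the longest ATG frame in the GENCODE M21 transcripts of the gene that are not labelled as retaining an intron, with the start and stop codons in capitals. The introns themselves were not checked, so a transcript kept by its label can still hold intron bases.
Gas5: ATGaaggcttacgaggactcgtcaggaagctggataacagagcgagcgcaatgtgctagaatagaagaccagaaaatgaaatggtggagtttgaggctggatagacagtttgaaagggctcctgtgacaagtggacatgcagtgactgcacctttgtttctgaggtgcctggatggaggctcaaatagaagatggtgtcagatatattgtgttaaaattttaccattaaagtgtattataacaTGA
Snhg3: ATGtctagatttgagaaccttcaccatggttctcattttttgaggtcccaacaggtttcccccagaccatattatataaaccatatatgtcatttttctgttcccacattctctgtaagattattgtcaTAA
Snhg8: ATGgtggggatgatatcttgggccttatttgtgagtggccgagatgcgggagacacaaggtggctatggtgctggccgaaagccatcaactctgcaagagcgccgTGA
Malat1: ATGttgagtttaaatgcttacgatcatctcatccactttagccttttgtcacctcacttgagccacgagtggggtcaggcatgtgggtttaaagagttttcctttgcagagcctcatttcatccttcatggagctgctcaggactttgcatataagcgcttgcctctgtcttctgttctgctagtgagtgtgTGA
In Gas5 the frame had 81 codons and took 71.1% of a 346-base transcript. In Snhg3 it had 43 codons in 581 bases, and in Snhg8 35 codons in 448 bases, the shortest of the 10. The other hosts lay between: 36 codons in Epb41l4aos, 41 in Snhg1, 56 in Snhg6, 57 in Snhg12 and 66 in Snhg5. Malat1 had a frame of 64 codons in 6983 bases, and Neat1 one of 126 codons in 20771 bases. The tested protein-coding genes had a median of 458 codons. A frame in the sequence does not show that it is read.

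The genes are annotated in the deposited table at the positions below, which equal those of GENCODE M21 (GRCm38) for 9 of the 10. Gas5 spans chromosome 1 from 161034422 to 161038539 on the + strand and holds 10 annotated snoRNA entries, Snord47, Snord78 and Snord80 among them. Snhg1, the host of Snord22 and 7 further snoRNA entries, spans chromosome 19 from 8723475 to 8726443 on the + strand. Snhg5, host of Snord50a and Snord50b, spans chromosome 9 from 88521050 to 88522929, and Snhg6, host of Snord87, chromosome 1 from 9941959 to 9944118, both on the - strand. These are mainly hosts of box C/D snoRNAs, which guide 2′-O-methylation. Another 3 carry H/ACA snoRNAs, which guide pseudouridylation. Snhg3 spans chromosome 4 from 132348014 to 132353686 on the - strand with Snora73a and Snora73b. Snhg8 spans chromosome 3 from 123507552 to 123508404 on the - strand with Snora24. Snhg12 spans chromosome 4 from 132308678 to 132311024 on the + strand with Snora16a, Snora44, Snora61 and the C/D-type Snord99, and its GENCODE start is 132308623. Epb41l4aos, with 1 snoRNA entry, spans chromosome 18 from 33794892 to 33795986 on the + strand. Malat1 and Neat1 are neighbours on chromosome 19, at 5795690 to 5802672 and 5824708 to 5845478, both on the - strand. The snoRNAs themselves were not analysed here, and none of the 30 annotated snoRNA entries inside the hosts has a row in the deposited table. Merged exons cover the whole span of Snhg1 (2969 bases) and Snhg8 (853 bases). Every value below is of the host gene, and reads of spliced RNA, unspliced precursor and snoRNA were not told apart.

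Overlaps with other genes bear on the counting, since the labels do not state whether strand was used. Gm37376 lies on the opposite strand inside Malat1, and its counts were 26.7% to 30.5% of those of Malat1 in polysome libraries, 35.4% to 43.7% in monosome libraries and 19% to 30.1% in total RNA libraries. Gm17300 lies on the opposite strand inside Snhg3 and had 98.7% to 281% of the Snhg3 counts in polysome libraries, 80.6% to 183% in monosome libraries and 90.5% to 146% in total RNA libraries. Reads of Gm37376 and Gm17300 cannot be told apart here from reads of Malat1 and Snhg3 without strand. Rcc1, a protein-coding gene, runs over Snhg3 on the same strand, and the table could split shared reads between them. Its counts were 316% to 694% of those of Snhg3 in polysome, 18.7% to 84.5% in monosome and 257% to 640% in total RNA libraries. Zbtb37 and Mcmdc2 touch the ends of Gas5 and Snhg6 by 428 and 127 bases.

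Libraries held 9190034 to 16711558 counts. The members took 0.0569% to 0.0671% of the counts in polysome libraries, 0.0259% to 0.0317% in monosome libraries and 0.0428% to 0.0608% in total RNA libraries. Counts per library ran from 16, for Snhg5 in a WT monosome library, to 5124, for Neat1 in a KO polysome library. All 9 measured macrophage markers were tested, with a summed level of 6548 to 10705 CPM (counts scaled to library size) over the 6 groups, against 149 to 410 CPM for 10 stromal markers. The sums were 10.2 to 25.7 CPM for 8 megakaryocyte and red cell markers, 4.5 to 15.2 CPM for 8 neutrophil markers and 3.29 to 9.44 CPM for 6 B cell markers. They were 2.29 to 4.04 CPM for 6 dendritic cell markers and 0.255 to 2.3 CPM for 6 T cell markers. Within these lists Ly6g (neutrophils), Siglech (plasmacytoid dendritic cells) and Hba-a1 (red cells) were at 0 in all libraries. Mkrn2 RNA itself remained in the libraries labelled KO at 0.901 of the WT level in polysome, 0.772 in monosome and 0.888 in total RNA. None of these differences passed the test (edgeR's quasi-likelihood test, Benjamini-Hochberg adjusted p = 0.79, 0.086 and 0.855), so KO below is a label. CPM are scaled by TMM, a factor per library that puts the bulk of genes on a common level, and a level is therefore a share of a library: more of 1 RNA and less of the others cannot be told apart.

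**Figure D1:**
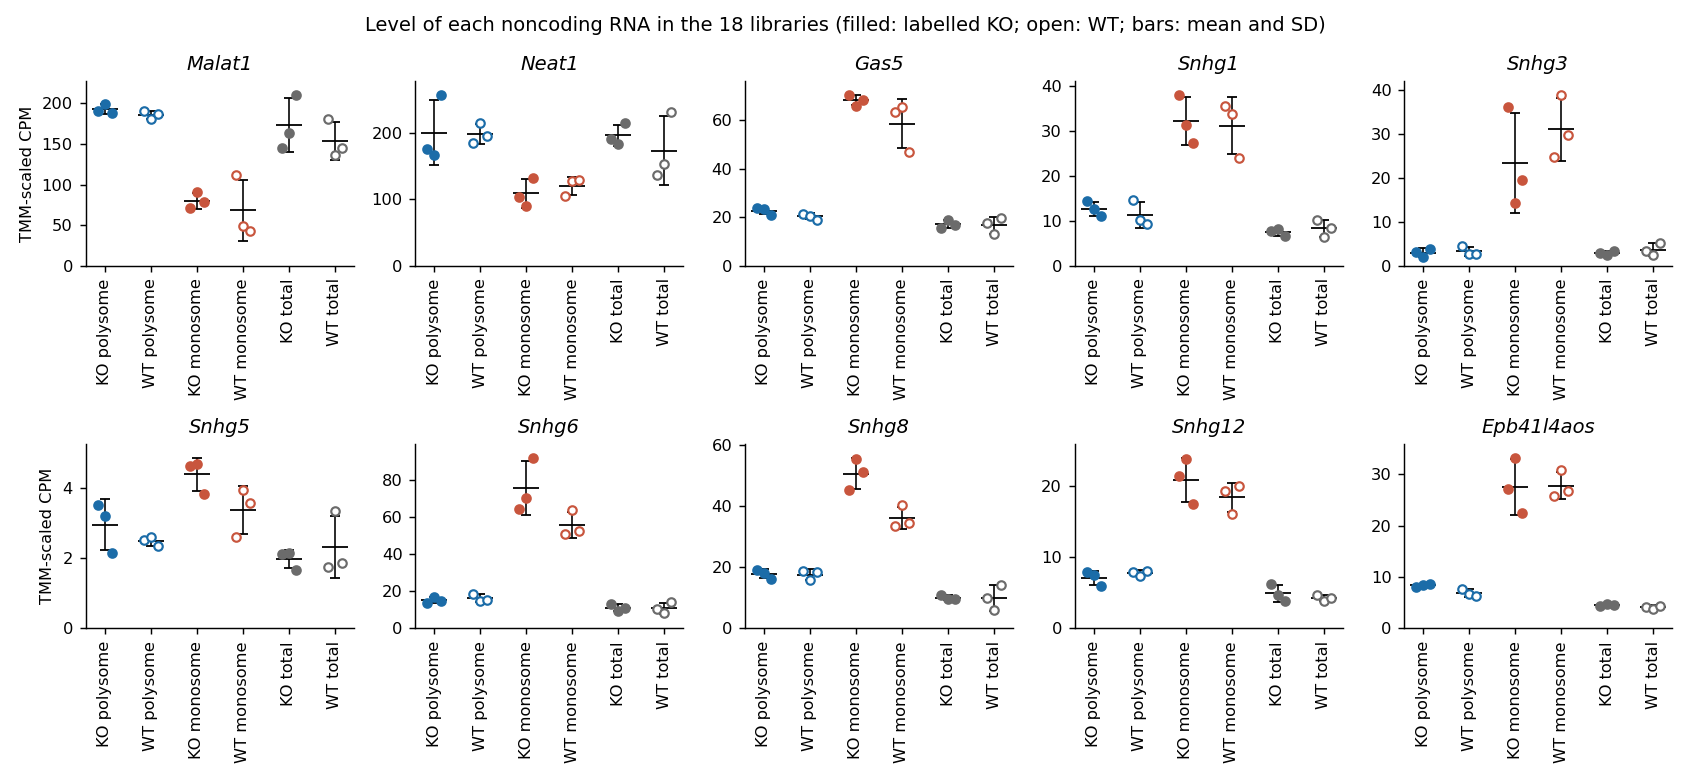
TMM-scaled CPM of the 10 noncoding RNAs (vertical axes from 0) in KO and WT libraries of polysome (blue), monosome (red) and total RNA (grey). Points are libraries, filled for KO and open for WT, and bars give the mean and SD of 3 libraries; the hosts stand highest in monosome libraries, Malat1 and Neat1 lowest there.

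RNA of the hosts was enriched in the monosome fraction. All 8 hosts were higher in monosome than in total RNA, by 1.80-fold (Snhg5) to 8.32-fold (Snhg3), while Malat1 and Neat1 were lower there, at 0.451 and 0.619 of the total RNA level. Across all tested genes, 36.1% were called higher and 38.2% lower in this comparison, 74.3% in either direction, so a call by itself is common and the sizes carry the description. The median log2 difference was 2.09 for the 8 hosts and -0.05 for all tested genes. Of all tested genes, 79.7% had a lower value than Snhg5, and 95.2% to 99.2% a lower value than each of the other 7 hosts. Monosome and total RNA libraries did not overlap for 9 of the 10 members, as for 53.2% of all tested genes.

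Among the C/D hosts, Gas5, a gene first found in growth-arrested cells, had a lowest, median and highest level of 19, 21.3 and 23.6 CPM in the 6 polysome libraries, 47, 65.8 and 70.2 CPM in the 6 monosome libraries and 12.9, 17.1 and 19.5 CPM in the 6 total RNA libraries. Every monosome library stood above every library of the other sources. The log2 difference was 1.90 ± 0.10 (SE; n = 6 libraries a source; adjusted p = 1.06e-10, edgeR's quasi-likelihood test) for monosome against total RNA, a 3.74-fold level. For Snhg1, the values were 9.19, 11.9 and 14.5 CPM in polysome, 23.9, 32.5 and 37.9 CPM in monosome and 6.36, 7.97 and 10.2 CPM in total RNA libraries. Its monosome libraries were again apart from all others, at 3.99-fold of total RNA (95% interval 3.20 to 4.98; adjusted p = 5.71e-09, edgeR's quasi-likelihood test). Snhg6 ran at 13.7, 15.1 and 18.7 CPM in polysome, 50.7, 63.9 and 91.9 CPM in monosome and 8.29, 10.6 and 14 CPM in total RNA libraries. That set it among the hosts with the widest separation, 2.55 ± 0.14 on the log2 scale, or 5.87-fold (adjusted p = 9.81e-11, edgeR's quasi-likelihood test).

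Snhg5 was the exception among the hosts in size. It had 2.15, 2.57 and 3.51 CPM in polysome, 2.62, 3.9 and 4.69 CPM in monosome and 1.68, 1.99 and 3.34 CPM in total RNA libraries (lowest, median, highest). The monosome and total RNA libraries overlapped, which happened for no other member. The log2 difference of monosome against total RNA was 0.85 ± 0.18 (adjusted p = 0.000552, edgeR's quasi-likelihood test). Snhg5 also had the lowest counts of the 10, 16 to 68 in a library, and this call depended on the scaling and the genotype used: the value was -0.17 (adjusted p = 0.386) without scaling beyond library size and 0.55 (adjusted p = 0.108) in WT libraries alone, in edgeR's quasi-likelihood test.

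The hosts of H/ACA snoRNAs and Epb41l4aos were also highest in monosome libraries. Snhg3 differed from the others in that its polysome median was not above its total RNA median. Snhg3 had a lowest, median and highest level of 1.92, 2.95 and 4.44 CPM in polysome, 14.3, 27.2 and 38.7 CPM in monosome and 2.37, 3.08 and 5.21 CPM in total RNA libraries. Its 6 monosome libraries ranged widely and still lay above all others, and the 8.32-fold level (95% interval 5.68 to 12.2) was the highest of the 10 in monosome against total RNA, at a log2 difference of 3.06 ± 0.26 (adjusted p = 2.3e-08, edgeR's quasi-likelihood test). The opposite-strand Gm17300 inside Snhg3 moved likewise, by 2.92 ± 0.13 (adjusted p = 1.19e-11), and Rcc1, on the same strand, the other way, by -0.56 ± 0.14 (adjusted p = 0.00183, same test). Their part in the value of Snhg3 was not tested.

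Snhg8 stood at 15.7, 18.3 and 19.2 CPM in polysome, 33.6, 42.8 and 55.5 CPM in monosome and 5.98, 9.77 and 14.3 CPM in total RNA libraries. For Snhg12 these levels were 5.99, 7.68 and 8.1 CPM, 16.1, 19.5 and 23.7 CPM, and 3.79, 4.48 and 6.18 CPM in polysome, monosome and total RNA. Both had a log2 difference of 2.09 for monosome against total RNA, with SEs of 0.15 and 0.12 and no overlap (adjusted p = 3.4e-09 and 2.53e-10, edgeR's quasi-likelihood test). Epb41l4aos, transcribed beside Epb41l4a, had 6.29, 7.96 and 8.74 CPM in polysome, 22.4, 26.9 and 33.2 CPM in monosome and 3.73, 4.35 and 4.8 CPM in total RNA libraries. It had the smallest relative spread of the hosts in total RNA, a coefficient of variation of 8.25%, and all 3 sources were apart. Its log2 difference was 2.67 ± 0.10 (adjusted p = 1.9e-12, edgeR's quasi-likelihood test), the lowest adjusted p of the 10.

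**Figure D2:**
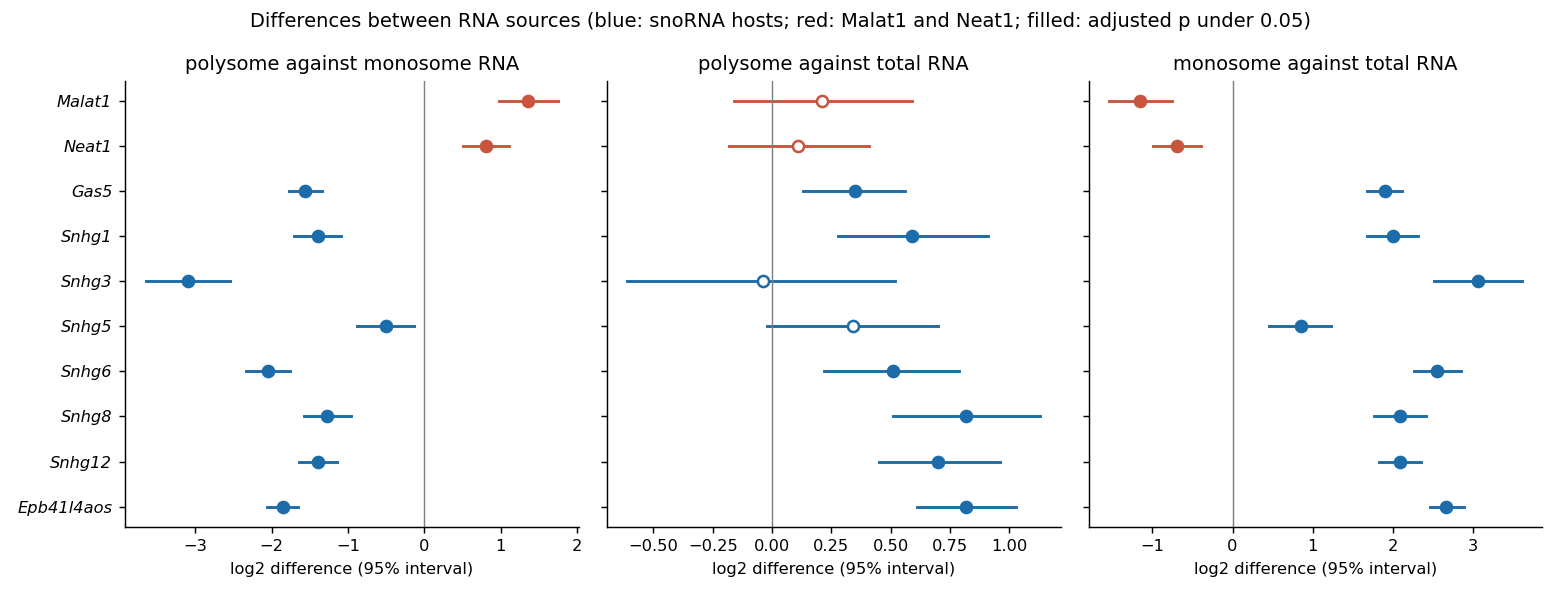
Log2 differences between RNA sources with 95% intervals (horizontal axes, each panel with its own range) for the 8 snoRNA hosts (blue) and for Malat1 and Neat1 (red); filled points passed an adjusted p of 0.05. The hosts lie right of 0 in monosome against total RNA and left of 0 in polysome against monosome RNA, and Malat1 and Neat1 on the other side in both.

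Polysome RNA held the hosts at levels nearer to total RNA. Of the 8, 6 were higher in polysome than in total RNA, against a background of 23.3% of tested genes called higher and 24.2% lower. These were Gas5 (log2 difference 0.35 ± 0.10, adjusted p = 0.00982), Snhg6 (0.51 ± 0.13, adjusted p = 0.00516), Snhg1 (0.59 ± 0.15, adjusted p = 0.00357), Snhg12 (0.70 ± 0.12, adjusted p = 0.000186), Snhg8 (0.82 ± 0.15, adjusted p = 0.000281) and Epb41l4aos (0.82 ± 0.10, adjusted p = 7.83e-06), all by edgeR's quasi-likelihood test. Libraries of the 2 sources did not overlap for Snhg8 and Epb41l4aos alone, while 31.2% of all tested genes had no overlap. Snhg3 gave -0.04 with a 95% interval of -0.61 to 0.52, and Snhg5 0.34 with one of -0.02 to 0.70, neither past the threshold (adjusted p = 0.909 and 0.114). Snhg5 passed it at 0.43 without KO polysome replicate 3 (adjusted p = 0.0402), at 0.52 without WT total replicate 2 (adjusted p = 0.0109) and at 0.37 with voom in limma (adjusted p = 0.0439). The median of the 8 hosts was 0.55, against -0.02 for all tested genes. In KO libraries alone Snhg6 and Snhg12 missed the threshold (adjusted p = 0.0816 and 0.0731), and in WT libraries alone Gas5 and Snhg1 did (0.178 and 0.161, edgeR's quasi-likelihood test).

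Set directly against monosome RNA, polysome RNA held less of every host. All 8 were lower, against 34% of tested genes called lower and 33.9% called higher. Levels fell to 0.117 of the monosome level for Snhg3 (95% interval 0.0798 to 0.171), 0.242 for Snhg6, 0.277 for Epb41l4aos, 0.340 for Gas5, 0.378 for Snhg1, 0.381 for Snhg12, 0.415 for Snhg8 and 0.702 for Snhg5. Libraries of 7 of the 8 hosts did not overlap, as for 44.9% of all tested genes, and those of Snhg5 did. The smallest adjusted p was 1.06e-10 (Epb41l4aos) and the largest 0.0175 (Snhg5), in edgeR's quasi-likelihood test. The value of Snhg5, a log2 difference of -0.51, missed the threshold at -0.44 without WT monosome replicate 2 (adjusted p = 0.0569), at -0.42 with no filter (adjusted p = 0.0615) and at -0.42 in WT libraries alone (adjusted p = 0.215). Only 0.438% of tested genes had a lower value than Snhg3.

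Malat1 and Neat1 went the other way. Malat1 had 191, 199 and 188 CPM in KO and 191, 181 and 187 CPM in WT polysome libraries, 70.6, 90.5 and 78.2 CPM in KO and 112, 49.1 and 43.3 CPM in WT monosome libraries, and 145, 164 and 210 CPM in KO and 181, 137 and 145 CPM in WT total RNA libraries. The monosome libraries were the lowest 6 of the 18, and the polysome libraries were close to each other, with a coefficient of variation of 3.21%. The log2 difference was 1.36 ± 0.18 for polysome against monosome RNA (adjusted p = 6.43e-06) and -1.15 ± 0.18 for monosome against total RNA (adjusted p = 3.01e-05, edgeR's quasi-likelihood test). Polysome and total RNA differed by 0.21 ± 0.18 (adjusted p = 0.344), with a 95% interval of -0.16 to 0.59. That value passed the threshold when only polysome and total RNA libraries were fitted (0.24, adjusted p = 0.0374). The opposite-strand Gm37376 gave 0.93 ± 0.20 and -0.39 ± 0.20 in the first 2 comparisons (adjusted p = 0.000585 and 0.088, same test), and its part in the Malat1 values was not tested.

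Neat1 had 176, 167 and 256 CPM in KO and 185, 215 and 195 CPM in WT polysome libraries, 103, 90.1 and 132 CPM in KO and 104, 127 and 128 CPM in WT monosome libraries, and 191, 183 and 214 CPM in KO and 136, 152 and 231 CPM in WT total RNA libraries. As for Malat1, the 6 monosome libraries were the lowest, though the gap to the lowest total RNA library was small. The log2 difference was 0.80 ± 0.14 for polysome against monosome RNA (adjusted p = 9.41e-05) and -0.69 ± 0.14 for monosome against total RNA (adjusted p = 0.000321), and polysome against total RNA gave 0.11 ± 0.14 (adjusted p = 0.532, edgeR's quasi-likelihood test). The 95% interval of that difference, -0.18 to 0.41, holds no change as well as a rise of 1.32-fold. The lower ends of the intervals put Malat1 and Neat1 in polysome RNA at 0.893 and 0.882 of their total RNA level.

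The direction of these differences is relative to the bulk of genes. Counts of Fth1, a ferritin gene, made up 15.2% to 18.5% of each monosome library, against 1.78% to 3.29% of a polysome or total RNA library. The part of Fth1 in the scaling factors and the shifts of the median given next was not tested. The TMM factors lay between 0.605 and 0.664 for monosome RNA, against at least 1.24 for polysome and total RNA. Without scaling beyond library size, the median of all tested genes moved to 1.03 for polysome against monosome RNA and to -1.06 for monosome against total RNA, and the genes called for polysome against monosome RNA split into 9972 higher and 929 lower, against 4331 and 4345 with scaling. For monosome against total RNA that split was 1376 higher and 9534 lower, against 4611 and 4884. The other 7 hosts kept their direction in both comparisons on that scale, though Snhg8, at -0.26 for polysome against monosome RNA, missed the threshold (adjusted p = 0.0971). Snhg5 turned round, to 0.50 in polysome against monosome RNA (adjusted p = 0.0123, edgeR's quasi-likelihood test). Counted from the median gene, Snhg5 was at -0.53 with and without scaling. That sameness follows from the scaling itself, which shifts all genes of a comparison by nearly the same amount.

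Per kilobase of merged exons, the RNAs could be ranked within a source. In total RNA, Malat1 was the highest, at 23.4 ± 3.97 CPM per kb (SD, n = 6), followed by Snhg8 (11.8 ± 3.13), Epb41l4aos (10.1 ± 0.833), Snhg6 (9.63 ± 1.90), Neat1 (8.88 ± 1.74), Gas5 (4.49 ± 0.645), Snhg3 (3.30 ± 1.07), Snhg1 (2.67 ± 0.466), Snhg12 (1.91 ± 0.366) and Snhg5 (1.24 ± 0.355 CPM per kb). The ranges of mean ± SD of neighbours in this order overlapped except below Malat1 and below Neat1. In monosome RNA the order changed: Epb41l4aos (64.4 ± 8.91), Snhg6 (57.2 ± 13) and Snhg8 (50.9 ± 10.4 CPM per kb) came first with overlapping ranges, ahead of Snhg3 (27.5 ± 9.63), Gas5 (16.9 ± 2.22) and Malat1 (10.6 ± 3.67 CPM per kb). Snhg1 (10.6 ± 1.78), Snhg12 (8.16 ± 1.13), Neat1 (5.50 ± 0.825) and Snhg5 (2.25 ± 0.439 CPM per kb) closed that order. In polysome RNA Malat1 led again, at 27.1 ± 0.870 CPM per kb, ahead of Snhg8 at 20.8 ± 1.67 and Epb41l4aos at 17.9 ± 2.22 CPM per kb. Snhg5 was the lowest of the 10 in all 3 sources. Merged exons can exceed each single transcript of a gene, so a level per kb is understated where a short isoform carries the reads. How evenly the mRNA kit captured the 10 RNAs was not tested, so the order is one of reads.

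Messenger RNAs with short coding sequences shared the hosts' pattern. For monosome against total RNA, the median log2 difference of protein-coding genes was 1.15 (quartiles 0.70 and 1.88, n = 228 genes) under 300 coding bases, 0.95 (n = 1297) from 300 to 600, 0.36 (n = 3401) from 600 to 1200, -0.27 (n = 4266) from 1200 to 2400, -0.81 (n = 1927) from 2400 to 4800 and -0.98 (n = 524) above. Of the 8 hosts, 7 exceeded the upper quartile of the class of shortest coding sequences, and Snhg5 lay between its quartiles. Malat1 and Neat1, whose frames are short, lay between the quartiles of the class above 4800 coding bases (-1.39 and -0.53). Spearman's rho between coding length and the log2 difference was -0.59 for monosome against total RNA, -0.54 for polysome against total RNA and 0.42 for polysome against monosome RNA, over 11643 genes. These correlations run across genes of the same libraries, which are not independent replicates. By longest transcript, the median was 1.24 (n = 887) under 1000 bases, -0.60 (n = 3898) from 4000 to 8000 and -0.85 (n = 639) above. Malat1 (6983 bases, at -1.15) lay just below the lower quartile of its class (-1.09). Neat1 (20771 bases, at -0.69) lay between the quartiles of its class (-1.29 and -0.37). Spearman's rho with transcript length was -0.52 over 12738 genes, and the effects of coding length and transcript length were not separated.

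**Figure D3:**
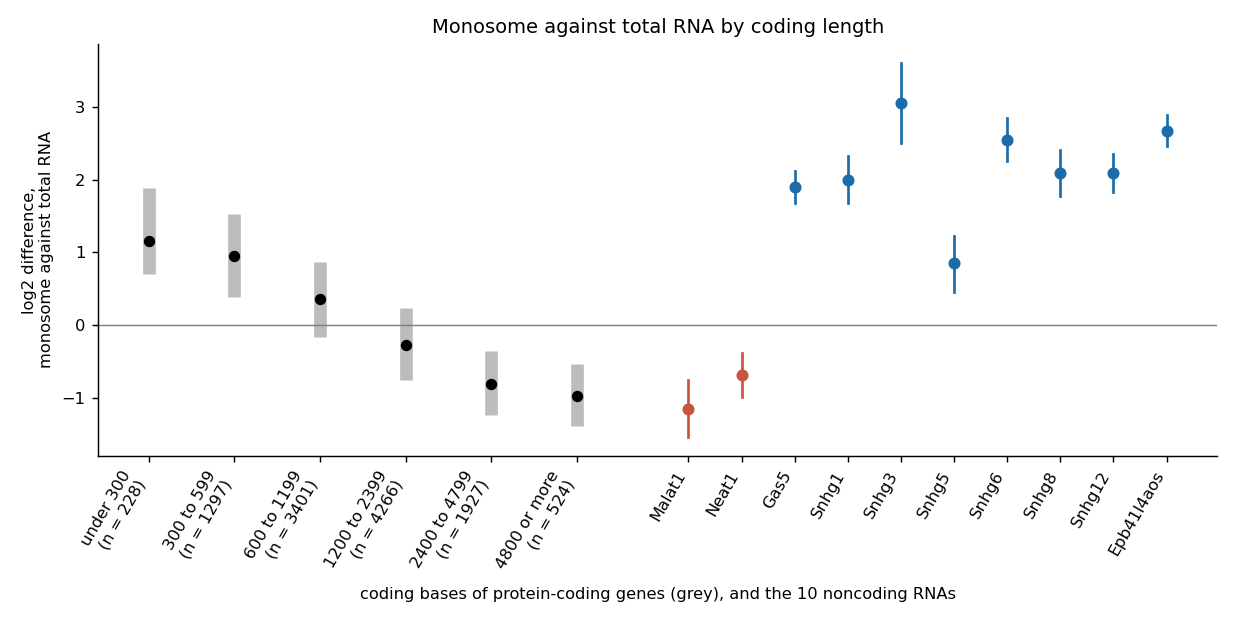
Log2 difference of monosome against total RNA (vertical axis) for protein-coding genes in 6 classes of coding length, as median (black) and quartiles (grey), and for the 10 noncoding RNAs with 95% intervals (hosts blue, Malat1 and Neat1 red). The class medians run from 1.15 down to -0.98, and 7 hosts lie above the upper quartile of the shortest class.

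Ribosomal protein messages, the best known RNAs with a pyrimidine run at the start, had medians near those of the hosts. Of 78 tested, 77 were higher in monosome than in total RNA, with a median log2 difference of 2.29. Among all tested genes 36.1% were higher and 38.2% lower there. In polysome against total RNA 66 were higher, with a median of 0.54, beside 23.3% higher and 24.2% lower among all tested genes. The hosts' medians in the same comparisons were 2.09 and 0.55. The run was not searched for in ribosomal protein genes, and the part of the run or of coding length in this likeness was not tested. Some ribosomal protein genes, such as Rpl36 with 8.31 ± 1.19 CPM in monosome and 1.51 ± 0.272 CPM in total RNA (SD, n = 6 each), have many near-identical copies, which can lower their counts. The 31 protein-coding snoRNA hosts, such as Ncl, which codes for nucleolin, gave a median of 1.10 for monosome against total RNA, with 24 higher and 5 lower. These hosts include ribosomal protein genes, such as Rpl23a and Rps13, and were not summarised without them. Ncl itself was lower, at 36.8 ± 4.45 CPM in monosome and 104 ± 12 CPM in total RNA (SD, n = 6 each), a log2 difference of -1.50 ± 0.08 (adjusted p = 7.74e-11, edgeR's quasi-likelihood test). Rps13, which also has near-identical copies, averaged 1.1 ± 0.256 CPM in polysome and 0.523 ± 0.208 CPM in total RNA (adjusted p = 0.00213, same test).

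Among 20 other tested noncoding RNAs, 13 were higher and 6 lower in monosome than in total RNA, and 8 were higher and 3 lower in polysome than in total RNA. The shares of all tested genes were 36.1% higher and 38.2% lower in the first comparison, and 23.3% and 24.2% in the second. Further snoRNA hosts were on the higher side: Snhg17 (1.16 ± 0.10), Snhg18 (1.23 ± 0.23), Snhg20 (1.38 ± 0.32) and Snhg4 (1.38 ± 0.50) gave adjusted p of 1.77e-08, 0.000185, 0.00118 and 0.0212 for monosome against total RNA. Snhg14, the long precursor of the imprinted Snord115 and Snord116 clusters, was lower, at -1.97 ± 0.20 (adjusted p = 1.89e-07). On the side of Malat1 and Neat1 were Tug1 (-1.35 ± 0.08, adjusted p = 5.36e-10), Firre (-1.30 ± 0.26, adjusted p = 0.000315) and Meg3 (-2.39 ± 0.74, adjusted p = 0.00842), all by edgeR's quasi-likelihood test. Other long noncoding RNAs were higher, such as Pvt1 (1.47 ± 0.26, adjusted p = 9.83e-05) and Trp53cor1 (1.10 ± 0.24, adjusted p = 0.000624, same test). Some of these RNAs were scarce: Meg3 averaged 0.162 CPM in monosome and 0.797 CPM in total RNA. Snhg4, Snhg18 and Snhg20 averaged 0.731, 0.713 and 0.533 CPM in total RNA.

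The RNA parts of RNase MRP and RNase P, enzymes that cut precursor ribosomal and transfer RNA, gave the widest separations of these 20. Rmrp averaged 0.369 ± 0.196 CPM in polysome, 22 ± 9.02 CPM in monosome and 0.937 ± 0.336 CPM in total RNA libraries (SD, n = 6 each). Rpph1 averaged 2.75 ± 1.34, 57.6 ± 15.6 and 0.828 ± 0.495 CPM in polysome, monosome and total RNA. The log2 differences of monosome against total RNA were 4.50 ± 0.25 and 6.17 ± 0.30 (adjusted p = 1.74e-10 and 2.74e-11, edgeR's quasi-likelihood test). Neither RNA codes for a protein. The libraries were made with an mRNA kit, and how well it captured these RNAs in each source was not tested. Against total RNA, polysome RNA held less Rmrp (-1.45 ± 0.37, adjusted p = 0.00468) and more Rpph1 (1.77 ± 0.31, adjusted p = 0.000254, same test).

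**Figure D4:**
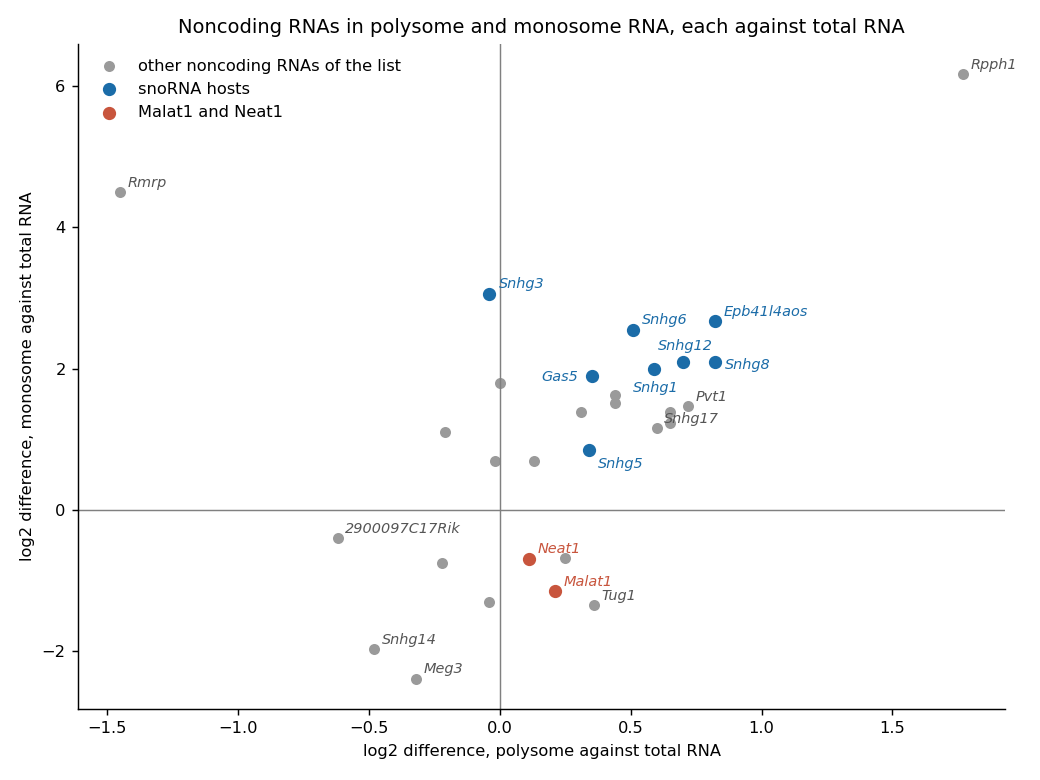
Log2 difference of polysome (horizontal axis) and monosome RNA (vertical axis), each against total RNA, for the 8 snoRNA hosts (blue), Malat1 and Neat1 (red) and 20 other noncoding RNAs (grey). The hosts lie between 0.85 and 3.06 on the vertical axis, Malat1 and Neat1 at -1.15 and -0.69, and Rmrp and Rpph1 at 4.50 and 6.17; both axes share the total RNA libraries.

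The hosts' profiles over the 18 libraries were alike. Pearson's r of log2 CPM between pairs of hosts ran from 0.61 to 0.98 with a median of 0.94 (28 pairs), which rests on the separation of the fractions. In deviations from the group means it ran from -0.37 to 0.75 with a median of 0.27. Between a host and Malat1 or Neat1 it ran from -0.90 to -0.66, and between Malat1 and Neat1 it was 0.69. The gene nearest to the hosts' mean profile was Saa3, which codes for an acute-phase serum amyloid protein (r = 0.996), followed by Clec2d (0.994), a lectin-like ligand, the noncoding Gm14005 (0.994), Nol12 (0.993), a nucleolar protein, and Mrpl33 (0.993), a subunit of the mitochondrial ribosome. The 4 coding genes among them have 195 to 651 coding bases. Nearest to Malat1 were Ankrd27 (0.956), Edem1 (0.949), Limd1 (0.949), Spidr (0.948) and Smc6 (0.940), with 1956 to 3291 coding bases. Slc25a51 (0.929), Rassf8 (0.920), Fam193b (0.915), Ssh1 (0.909) and Zcchc2 (0.907) were nearest to Neat1. These are descriptions over libraries that share 3 sources.

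Between genotypes, no member passed the test in any source. The share of all tested genes called was 0.0156% in polysome, 0.25% in monosome and 0.0156% in total RNA, so 0 of 10 is near the background. In polysome RNA, the log2 differences of KO against WT ran from -0.13 (Snhg12) to 0.28 (Epb41l4aos), in monosome RNA from -0.42 (Snhg3) to 0.49 (Snhg8) and in total RNA from -0.38 (Snhg3) to 0.21 (Snhg12). DESeq2 and voom called 0 members too. At an unadjusted p under 0.05, 0, 2 and 0 members would have been called in polysome, monosome and total RNA, against 6.99%, 11.7% and 5.84% of all tested genes. The 95% intervals bound what could have been seen: in polysome RNA that of Gas5 ran from -0.15 to 0.45, and that of Snhg3, the widest, from -0.92 to 0.67.

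The lowest unadjusted p-values belonged to 2 hosts in monosome RNA. Snhg8 had 45.3, 55.5 and 51.1 CPM in KO monosome libraries, against 33.6, 40.2 and 34.6 CPM in WT monosome libraries. Snhg6 had 64.2, 70.2 and 91.9 CPM in KO monosome libraries, against 50.7, 63.6 and 52.6 CPM in WT monosome libraries. In both, every KO library stood above every WT library. The log2 differences were 0.49 ± 0.20 for Snhg8 (unadjusted p = 0.0309, adjusted p = 0.374) and 0.44 ± 0.18 for Snhg6 (unadjusted p = 0.0291, adjusted p = 0.368, edgeR's quasi-likelihood test), so neither passed over all genes.

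Gas5 had no overlap in monosome RNA either, at 70.2, 66 and 68.3 CPM in KO and 63.2, 65.5 and 47 CPM in WT libraries (log2 difference 0.22 ± 0.14, adjusted p = 0.598). With it, 3 of 10 members had no overlap in monosome RNA, 1 in polysome RNA and 0 in total RNA, against 12.5%, 14.9% and 13.6% of all tested genes. The 1 in polysome RNA was Epb41l4aos, with 8.16, 8.37 and 8.74 CPM in KO and 7.76, 6.78 and 6.29 CPM in WT libraries (0.28 ± 0.14, adjusted p = 0.748, edgeR's quasi-likelihood test). In total RNA the hosts' KO and WT libraries overlapped throughout.

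Malat1 in monosome RNA rested on 1 library. It had 70.6, 90.5 and 78.2 CPM in KO libraries, against 112, 49.1 and 43.3 CPM in WT libraries, the first of which stood above all the others. The log2 difference of KO against WT was 0.23 ± 0.26 (adjusted p = 0.794), and 0.79 (adjusted p = 0.033, edgeR's quasi-likelihood test) without WT monosome replicate 1. That library had the fewest counts of the 18. Neat1 in the same libraries gave -0.14 ± 0.20 (adjusted p = 0.851), with overlap, and the first WT library, at 104 CPM, lay within the range of the KO libraries.

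**Figure D5:**
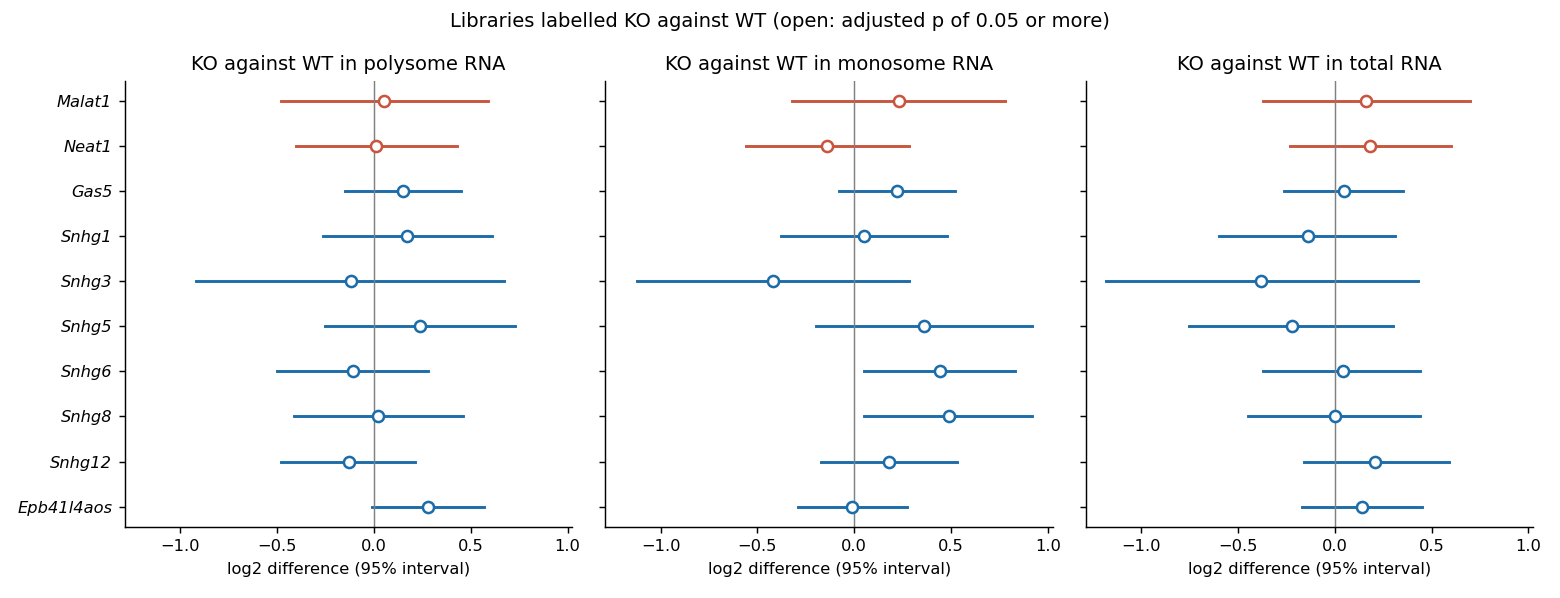
Log2 differences of libraries labelled KO against WT with 95% intervals (horizontal axis) in polysome, monosome and total RNA for the 8 snoRNA hosts (blue) and for Malat1 and Neat1 (red). All points are open, since none passed an adjusted p of 0.05; the intervals of Snhg6 and Snhg8 in monosome RNA lie right of 0.

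Whether the distribution over fractions differed between genotypes was tested as an interaction. For the polysome-to-total ratio, the values of the members ran from -0.35 (Snhg12) to 0.46 (Snhg5), and for the polysome-to-monosome ratio from -0.55 (Snhg6) to 0.29 (Snhg3 and Epb41l4aos). The monosome-to-total ratio gave -0.32 (Neat1) to 0.58 (Snhg5). Members called numbered 0 in all 3, where 0%, 0.0548% and 0.0548% of tested genes were called. DESeq2 and voom called none either, and at an unadjusted p under 0.05 the members numbered 0 in each, against 1.79%, 5.3% and 5.28% of tested genes. Snhg6 had the lowest p, for the polysome-to-monosome ratio: its 95% interval was -1.10 to 0.00, with an unadjusted p of 0.0512 and an adjusted p of 0.943 in edgeR's quasi-likelihood test.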

How the data were processed

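The deposited table held, for each of 18 libraries, whole-number counts per gene, and beside them FPKM made by the authors. Per the submitters' processing notes, fastp 0.23.2, HISAT2 2.0.4 and StringTie 1.3.0 were used; their settings and the genome build are not given in the sources used here. Libraries were made with a SMARTer mRNA kit, per the labels' protocols. The deposited FPKM were counts divided by a length per gene and by the library total, but the implied length exceeded 1.5 times the merged exons in 30.4% of checked genes (Gas5, 11685 against 3760 bases), so FPKM were not used and levels between genes are CPM over merged GENCODE exons.

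Counts were analysed with edgeR 4.0.16 in R 4.3.3: filterByExpr with the 6 groups and a minimum count of 10 kept 12782 genes, TMM factors were applied, and 1 mean per group was fitted over all 18 libraries (median prior degrees of freedom 3.41), followed by two-sided quasi-likelihood F tests with Benjamini-Hochberg adjustment over all tested genes (threshold 0.05). A fraction difference is the mean of its value in KO and in WT. The ± of a log2 difference is an approximate standard error, its absolute value divided by the square root of the test's F. Intervals at 95% were built from that error, and both can be off for a difference very near 0. Depth limits the lowest members (16 counts). The test was tried on simulated data. Same-numbered libraries deviated together only weakly (correlations of -0.0521 to 0.153) and were not fitted as pairs in the main fit. Weak correlations do not exclude pairing. Alternatives were RLE factors, no scaling, 2 filters, replicate blocks, voom with quality weights in limma 3.58.1, DESeq2 1.42.0, fits of fewer libraries and leaving out each library. Plots were made in Python 3.11.15 (matplotlib 3.10.9).

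The members, the gene lists and the tests were chosen with earlier results of these data known. Genes named are the members, of each list the 2 highest and 2 lowest for polysome against total RNA, overlapping genes, the 5 nearest profiles, and, chosen after their values were seen, Gm37376, Gm17300, Rcc1, Fth1, Tug1, Firre, Meg3, Trp53cor1, Snhg4, Snhg14, Snhg17, Snhg18 and Snhg20. Some genes these rules name are not reported here. RefSeq windows (GRCm38.p6) matched 7 of the 10 members. GENCODE M21 matched 34267 of 34745 identifiers.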

Additional observations from a re-analysis of the deposited data

How the results depend on the processing

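Of 1821 recalculated member values, 1804 kept their side of the threshold. Of these, 68 that passed in neither fit changed sign (25 differences, at -0.22 to 0.25 as reported and -0.31 to 0.34 then), and 1736 did not. A further 9 missed the threshold, 6 passed it and 2 called differences changed sign, both for Snhg5 without scaling beyond library size. Polysome against monosome RNA then gave 0.50 (adjusted p = 0.0123). Monosome against total RNA gave -0.17 and no longer passed (adjusted p = 0.386, edgeR's quasi-likelihood test for both). All 8 hosts and Malat1 and Neat1 were called for monosome against total RNA in each fit without 1 library (10 of 10). For polysome against monosome RNA such fits called 9 to 10 members and for polysome against total RNA 6 to 7; Malat1 without WT monosome replicate 1 was the 1 member called between genotypes (0 to 1 in monosome RNA, 0 elsewhere). Genes called without 1 library ranged from 8440 to 8613 for polysome against monosome, 5517 to 5920 for polysome against total and 9276 to 9454 for monosome against total RNA. In KO and in WT alone, polysome against total RNA called 3756 and 4003 genes, against 6060.

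Counts between genotypes depended on the method and are small. KO against WT in polysome RNA called 2 genes, against 5 with RLE factors, 5 without a filter, 9 at a mean of at least 5 CPM, 9 with a replicate block, 26 with voom, 55 with DESeq2, 8 with only the groups compared and 1 to 6 without 1 library. In monosome RNA it called 32, against 60 with a replicate block, 15 with voom, 118 with DESeq2, 10 with only the groups compared and 30 to 71 without 1 library. In total RNA it called 2, against 1 without a filter, 1 with a replicate block, 67 with voom, 32 with DESeq2, 1 with only the groups compared and 1 to 6 without 1 library. The polysome-to-total ratio gave 0, against 1 with voom, 3 with DESeq2, 1 with only the groups compared and 0 to 4 without 1 library; the polysome-to-monosome ratio gave 7, against 27 with DESeq2 and 6 to 19 without 1 library; the monosome-to-total ratio gave 7, against 18 with DESeq2, 11 with only the groups compared and 4 to 22 without 1 library. The cause of these changes was not tested. A replicate block changed no call of a member between genotypes; within genotype it added Snhg5 for polysome against total RNA (0.35, adjusted p = 0.0425, edgeR's quasi-likelihood test). The lowest count behind a member was 16 (Snhg5), which limits its precision.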

Other observations

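Messages for proteins that work with these RNAs were counted by direction, beside all tested genes. In monosome against total RNA, 36.1% of all tested genes were higher and 38.2% lower, and in polysome against total RNA 23.3% were higher and 24.2% lower. Of 19 messages for snoRNA-bound proteins and their assembly factors, 9 were higher and 9 lower in monosome than in total RNA. Nhp2, a core protein of H/ACA particles, averaged 63.2 ± 6.92 CPM in polysome, 118 ± 10.7 CPM in monosome and 32.8 ± 4.31 CPM in total RNA (SD, n = 6 each), a log2 difference of 1.85 ± 0.10 for monosome against total RNA (adjusted p = 1.63e-10, edgeR's quasi-likelihood test). Nolc1, a chaperone of snoRNPs, was lower in monosome than in total RNA, by -0.85 ± 0.11 (adjusted p = 4.05e-06, same test). Of 19 messages for paraspeckle and speckle proteins, 8 were higher and 5 lower in monosome, and 2 higher and 11 lower in polysome RNA, each against total RNA.

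Of 21 nonsense-mediated decay factors, 5 were higher and 13 lower in monosome than in total RNA, against the same 36.1% and 38.2% of all tested genes. Smg5, which helps to recruit decay enzymes, averaged 60 ± 4.85 CPM in polysome, 3.39 ± 0.776 CPM in monosome and 47.1 ± 3.18 CPM in total RNA (SD, n = 6 each), a log2 difference of -3.80 ± 0.11 for monosome against total RNA (adjusted p = 1.4e-13, edgeR's quasi-likelihood test). No member of these 3 lists was chosen for its genotype difference.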
